A study of Mus musculus with 10 samples.

Results

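The genes described here are those of Ccr2-bearing monocytes and of the chemokines that draw them into tissue: Ccr2, Ccl2, Ccl7, Plac8, Adgre4, Slamf8, Aif1, Tyrobp, Fcer1g and Lyz2. They are 10 of the 15341 genes in a table of read counts from 10 mouse hearts, and all 10 passed the filter on low counts that left 12992 genes. They were chosen from what is known of monocytes and also on results of this same comparison, so their differences between the groups are a description. Where a gene of the set is said to have been called or to have passed, this places it in the fit across all genes and is no independent test of it. Gene expression was measured by sequencing of mRNA from the hearts of 10 male mice. All animals carried Sphk1f/- and Sphk2f/-, a floxed over a null allele of each sphingosine kinase gene. The 5 animals called S1Pless also carried Mx1Cre, a recombinase under the interferon-inducible Mx1 promoter, and the 5 littermate controls did not. Sphingosine kinases make sphingosine 1-phosphate (S1P), a lipid messenger of blood plasma. Mx1-Cre acts in blood-forming cells and in some other cells, so a loss of the kinases need not be limited to the cells that supply plasma S1P, and every comparison also sets animals with the recombinase against animals without it. Ages are not given in the labels.

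CCR2 is the chemokine receptor that lets classical monocytes leave the bone marrow and enter inflamed tissue, and CCL2 and CCL7 are the ligands that guide them. In the heart, monocytes that enter through CCR2 add to the macrophages that live in the muscle, most of which carry no CCR2. Monocytes and macrophages share many transcripts, among them those of the signalling adaptors Tyrobp and Fcer1g and of lysozyme. In RNA from whole hearts, more cells of a type and more RNA per cell cannot be told apart.

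The libraries held 16354071 to 20832566 counts. Levels are in CPM, the usual per-library scaling of counts, here with TMM factors, and 1 count was worth 0.0451 to 0.0658 CPM. The targeted genes were low to moderate in whole hearts and did not pass the test. Sphk1 had 16 to 27 counts per control heart and 8 to 18 per S1Pless heart (log2 fold change -0.74 ± 0.28, SE, edgeR adjusted p = 0.168), and Sphk2 had 278 to 439 and 277 to 389 counts (-0.27 ± 0.11, edgeR adjusted p = 0.180). The groups overlapped in Sphk1 and Sphk2, and counts over a whole gene check the labels only in part. Of the 10 hearts, S1Pless replicate 5 stood apart in the genes described here. The folds of these 10 genes are therefore given with and without it, and folds of other genes are with all 10 hearts unless stated.

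Of the 10 genes, 7 passed the threshold in the S1Pless direction and 0 in the other (edgeR's quasi-likelihood test, adjusted p below 0.05). At unadjusted p-values below 0.05 the counts were 9 and 0, DESeq2 called 9 and 0, and limma-voom 7 and 0. Over all 12992 tested genes 886 were lower at unadjusted p-values below 0.05 in edgeR, and the higher ones were not counted. Counts of higher genes at unadjusted p-values, here and below, therefore have no share of all genes beside them. Among all tested genes DESeq2 called 5.88% higher and limma-voom 3.98%. Over all tested genes 442 of 12992 (3.40%) were called higher and 41 (0.316%) lower, and since the genes were chosen on this contrast nothing is read from that gap. In 8 of the 10 genes every S1Pless heart lay above every control, which held for 4.53% of all tested genes. The median log2 fold change was 1.25 over the 10 genes and -0.01 over all genes. Without S1Pless replicate 5 these medians were 0.97 and -0.02, and 5 of the 10 genes were called, beside 1.69% of all genes.

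Promoter sequences give the regulatory context of the genes described here. The RefSeq promoter table, on the GRCm38.p6 build, held 8 windows of 7 of the 10 genes: Fcer1g, Slamf8, Plac8, Ccr2, Lyz2, Aif1 and Adgre4. Plac8 had 2 windows. The counts were made on GRCm39, so the coordinates serve only to place the sequences. In the 250 bases before each start site 4 motifs were searched on both strands: GAGGAA, the core bound by PU.1, GGGNNNNNCC, a kappaB site, GAAANNGAAA, an interferon-stimulated response element, and TTGCNNAA, a C/EBP core. They stand for the families of factors that are best known in monocyte genes and in cytokine responses.

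The 160 bases upstream of the start site are printed 5′ to 3′ on the gene's strand for the receptor gene and for 4 genes with a match, 3 of which had the highest folds of the set, with matches in capitals. They lie at chr9:124102023-124102182 (plus strand) for Ccr2, chr1:172590569-172590728 (minus) for Slamf8, chr5:100572206-100572365 (minus) for the first Plac8 window, chr17:55749824-55749983 (plus) for Adgre4 and chr17:35176053-35176212 (minus) for Aif1.
Ccr2: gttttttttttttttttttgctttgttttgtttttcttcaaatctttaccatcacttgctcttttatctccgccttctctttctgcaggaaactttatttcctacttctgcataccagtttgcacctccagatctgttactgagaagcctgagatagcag
Slamf8: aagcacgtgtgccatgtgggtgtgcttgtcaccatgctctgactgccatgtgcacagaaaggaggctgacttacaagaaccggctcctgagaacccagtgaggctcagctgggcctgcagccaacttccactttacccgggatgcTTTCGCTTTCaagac
Plac8: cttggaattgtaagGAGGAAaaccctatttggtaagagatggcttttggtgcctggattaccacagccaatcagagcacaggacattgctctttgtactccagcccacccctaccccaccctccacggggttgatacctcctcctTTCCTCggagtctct
Adgre4: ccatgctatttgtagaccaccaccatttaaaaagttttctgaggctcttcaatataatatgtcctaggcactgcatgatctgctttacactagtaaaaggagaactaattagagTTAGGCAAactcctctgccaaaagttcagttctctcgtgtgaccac
Aif1: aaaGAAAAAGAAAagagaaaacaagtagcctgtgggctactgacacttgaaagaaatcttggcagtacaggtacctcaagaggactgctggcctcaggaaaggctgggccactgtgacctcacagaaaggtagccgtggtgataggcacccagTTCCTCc

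In Slamf8 the capitals mark GAAANNGAAA, read on the opposite strand as TTTCGCTTTC, next to the start site. In Aif1 they mark GAAAAAGAAA, the same element on the gene's strand, and TTCCTC, the PU.1 core on the opposite strand. Plac8 had the PU.1 core once on each strand in this window. Adgre4 had TTAGGCAA, the C/EBP core on the opposite strand, and the second Plac8 window held that motif too. Fcer1g alone held the kappaB motif. None of the 4 motifs was present in the windows of Ccr2 and Lyz2. The PU.1 core was in 2 of the 8 windows and in 23.3% of 32851 windows of all genes, the kappaB site in 1 of 8 and in 45.8%, the interferon element in 2 of 8 and in 2.98%, and the C/EBP core in 2 of 8 and in 9.56%. A match is a string of letters and not a measured site, and matches of GAGGAA and GAAANNGAAA do not overlap in Aif1.

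**Figure D1:**
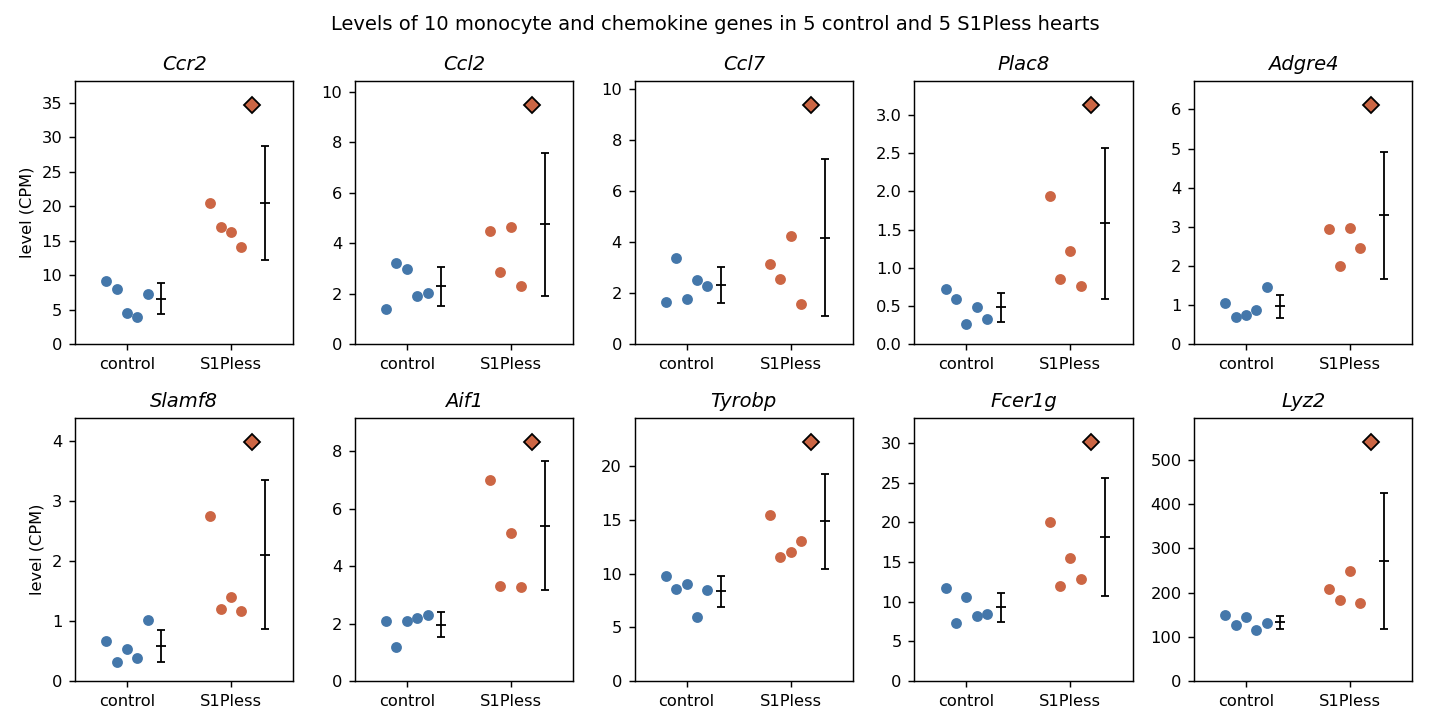
Level in CPM (vertical axes, linear, from 0) of each of the 10 genes in each heart, with control hearts in blue and S1Pless hearts in orange, in the order of their replicate numbers. Black bars give the mean and SD of 5 hearts, and the outlined diamond, which is highest in all 10 panels, is S1Pless replicate 5.

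Ccr2 (ENSMUSG00000049103), the receptor, had 9.14, 8.01, 4.58, 3.98 and 7.21 CPM in control replicates 1 to 5 and 20.4, 16.9, 16.2, 14.0 and 34.6 CPM in S1Pless replicates 1 to 5. These values came from 73 to 149 reads in each control and 278 to 731 in each S1Pless heart. The lowest S1Pless heart, replicate 4, lay above the highest control, replicate 1, and controls 3 and 4 were the lowest of all hearts. The control mean was 6.58 ± 2.22 CPM and the S1Pless mean 20.4 ± 8.27 CPM (SD, n = 5 each), a log2 fold change of 1.64 ± 0.28 (SE) or 3.12-fold. Without S1Pless replicate 5 the fold was 2.56, and Ccr2 passed in each of the 10 leave-one-out fits.

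Both ligand genes overlapped between the groups. Ccl2 (ENSMUSG00000035385), the main CCR2 ligand, had 1.38, 3.23, 2.98, 1.91 and 2.01 CPM in control replicates 1 to 5 and 4.47, 2.85, 4.64, 2.32 and 9.48 CPM in S1Pless replicates 1 to 5. S1Pless replicates 1, 3 and 5 lay above all controls, while replicates 2 and 4 lay within the control range. The control mean was 2.30 ± 0.775 CPM and the S1Pless mean 4.75 ± 2.83 CPM (SD, n = 5 each), a log2 fold change of 1.04 ± 0.35 that did not pass. Ccl7 (ENSMUSG00000035373), which also binds CCR2, had 1.64, 3.39, 1.76, 2.51 and 2.29 CPM in control replicates 1 to 5 and 3.16, 2.55, 4.24, 1.56 and 9.39 CPM in S1Pless replicates 1 to 5. Replicates 3 and 5 lay above all controls, and replicate 4 was the lowest of the 10 hearts. The control mean was 2.32 ± 0.697 CPM and the S1Pless mean 4.18 ± 3.07 CPM (SD, n = 5 each), with a log2 fold change of 0.85 ± 0.40, and it did not pass in any of the 20 other fits. S1Pless replicate 5 alone held more than double the level of any other heart in each ligand gene. Without that heart the fold was 1.53 for Ccl2, in place of 2.05, and 1.22 for Ccl7, in place of 1.80. DESeq2 was the only fit that called Ccl2. The ratio of Ccl2 to Ccl7 CPM ran from 0.761 to 1.70 in controls and from 1.01 to 1.48 in S1Pless hearts.

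Plac8, Adgre4 and Slamf8 were at low levels, and in each the groups did not overlap. Plac8 (ENSMUSG00000029322), a small cysteine-rich protein abundant in monocytes, had 0.724, 0.591, 0.266, 0.490 and 0.335 CPM in control replicates 1 to 5 and 1.94, 0.851, 1.22, 0.756 and 3.13 CPM in S1Pless replicates 1 to 5. The lowest S1Pless heart, replicate 4, was only just above the highest control, replicate 1. Behind these values stood 5 to 11 reads in each control and 15 to 66 in each S1Pless heart, and the log2 fold change was 1.73 ± 0.43 (3.31-fold, and 2.49-fold without S1Pless replicate 5). Adgre4 (ENSMUSG00000032915), an adhesion G protein-coupled receptor of monocytes and macrophages, had 1.05, 0.699, 0.745, 0.872 and 1.45 CPM in control replicates 1 to 5 and 2.93, 2.00, 2.96, 2.47 and 6.12 CPM in S1Pless replicates 1 to 5. The 4 S1Pless hearts other than replicate 5 lay close together, above all controls. The log2 fold change was 1.77 ± 0.32 (3.42-fold, 2.67-fold without replicate 5). Slamf8 (ENSMUSG00000053318), a SLAM family receptor of myeloid cells, had 0.658, 0.323, 0.532, 0.381 and 1.01 CPM in control replicates 1 to 5 and 2.75, 1.20, 1.39, 1.16 and 3.98 CPM in S1Pless replicates 1 to 5. Replicates 1 and 5 were well above the other S1Pless hearts, and control 5 came close to S1Pless replicate 4. Its log2 fold change of 1.86 ± 0.42 (3.64-fold, 2.81-fold without replicate 5) was the highest of the 10 genes. Of the 10 leave-one-out fits Adgre4 passed in all, Slamf8 in 5 and Plac8 in 4. On the control hearts alone, Plac8 and Slamf8 would not have met the filter on low counts.

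The adaptors had smaller folds at higher levels. Tyrobp (ENSMUSG00000030579) encodes DAP12, a membrane adaptor that carries an ITAM, the motif through which activating receptors signal. It had 9.80, 8.55, 9.00, 5.99 and 8.44 CPM in control replicates 1 to 5 and 15.4, 11.5, 12.0, 13.1 and 22.3 CPM in S1Pless replicates 1 to 5. All S1Pless hearts lay above all controls, with control 4 the lowest heart. The control mean was 8.35 ± 1.43 CPM and the S1Pless mean 14.8 ± 4.42 CPM (SD, n = 5 each), a log2 fold change of 0.83 ± 0.18 (1.78-fold, 1.55-fold without replicate 5). Fcer1g (ENSMUSG00000058715), the common gamma chain of Fc receptors and also an ITAM adaptor, had 11.8, 7.31, 10.5, 8.17 and 8.49 CPM in control replicates 1 to 5 and 20, 12.0, 15.5, 12.8 and 30.1 CPM in S1Pless replicates 1 to 5. The groups were all but touching, at control replicate 1 and S1Pless replicate 2. The log2 fold change was 0.97 ± 0.23 (1.96-fold, 1.62-fold without replicate 5). Of the leave-one-out fits, Tyrobp passed in 5 and Fcer1g in 4.

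Aif1 and Lyz2 are general genes of monocytes and macrophages. Aif1 (ENSMUSG00000024397), which encodes the calcium-binding protein IBA1, had 2.10, 1.18, 2.08, 2.18 and 2.29 CPM in control replicates 1 to 5 and 7.00, 3.30, 5.17, 3.28 and 8.34 CPM in S1Pless replicates 1 to 5. Control 2 was the lowest heart and the other 4 controls were nearly level, below all S1Pless hearts. Its log2 fold change was 1.46 ± 0.28 (2.76-fold, 2.37-fold without replicate 5), and it passed in every leave-one-out fit. Lyz2 (ENSMUSG00000069516), lysozyme M, had 150, 126, 144, 114 and 130 CPM in control replicates 1 to 5 and 209, 182, 248, 176 and 541 CPM in S1Pless replicates 1 to 5. All S1Pless hearts lay above all controls, but replicate 5 had more than double the next level, and the SD of the S1Pless group (154 CPM) was far above that of the controls (14.1 CPM). The log2 fold change of 1.03 ± 0.27 (2.04-fold) did not pass with all hearts, and the smaller one without replicate 5 (0.61, 1.53-fold) did. Lyz2 shares most of its sequence with Lyz1, so reads may have been split or lost between them. Lyz1, looked up after its values were seen, had 21 to 40 counts per control library and 39 to 122 in S1Pless replicates 1 to 4, against 768 in replicate 5.

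**Figure D2:**
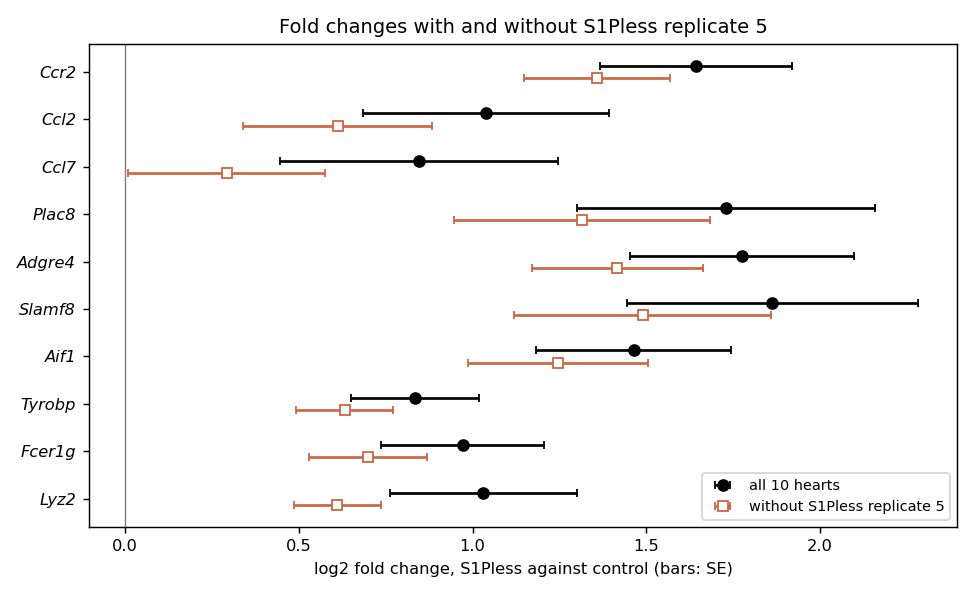
Log2 fold change of each gene (horizontal axis, S1Pless against control, bars give the SE) with all 10 hearts (filled circles) and without S1Pless replicate 5 (open squares). All 20 values lie above 0, all are smaller without that heart, and Ccl7 moved farthest towards 0 in proportion, from 0.85 to 0.29.

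Every one of the 10 genes had its highest level in S1Pless replicate 5. Its level was 1.19 times that of the next S1Pless heart in Aif1, 1.70 times in Ccr2, 2.04 times in Ccl2, 2.07 times in Adgre4, 2.19 times in Lyz2 and 2.22 times in Ccl7. The next S1Pless heart was replicate 1 in 6 genes and replicate 3 in Ccl2, Ccl7, Adgre4 and Lyz2. The summed level of the 10 genes was 141 to 188 CPM in controls, 227 to 311 in S1Pless replicates 1 to 4 and 669 in replicate 5, with Lyz2 the bulk of each sum.

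Per kilobase of exon (RPKM, over exon lengths of GENCODE M21), Lyz2 was highest in controls (101 ± 10.8), ahead of Tyrobp (12.5 ± 2.14) and Fcer1g (10.6 ± 2.11), which did not differ beyond their spread. The ligand genes Ccl7 (2.89 ± 0.871) and Ccl2 (2.02 ± 0.681) followed, with overlapping spreads. Aif1 (1.28 ± 0.291) and Ccr2 (0.974 ± 0.329) came next, also within their spread of each other. Plac8 (0.302 ± 0.117), Adgre4 (0.276 ± 0.0875) and Slamf8 (0.188 ± 0.0882) were lowest and not separated by their spread (RPKM level, SD, n = 5 each). The order was the same in S1Pless hearts, from 206 RPKM for Lyz2 and 22.3 for Tyrobp to 3.02 for Ccr2 and 0.681 for Slamf8.

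The level of Ccr2 was also set against other myeloid transcripts within each heart. The ratio of Ccr2 to Tyrobp CPM was 0.933, 0.937, 0.509, 0.664 and 0.854 in control replicates 1 to 5 and 1.32, 1.47, 1.35, 1.07 and 1.56 in S1Pless replicates 1 to 5. The groups did not overlap in this ratio, and S1Pless replicate 5 was close to replicate 2. The ratio of Ccr2 to Lyz2 was 0.0319 to 0.0638 in controls and 0.0640 to 0.0976 in S1Pless hearts, with replicate 5 the lowest of its group and level with control 2. Csf1r encodes the receptor for macrophage colony-stimulating factor, and the ratio of Ccr2 to Csf1r was 0.0963 to 0.241 and 0.220 to 0.336, so these groups overlapped. The ratios rest on the contrast on which the genes were chosen and are a description.

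How closely the other 9 genes followed Ccr2 from heart to heart was described with deviations of log2 CPM from each group's mean, so that the group difference itself adds nothing. The groups did not overlap in Ccr2, so no correlation over pooled levels is given. Over 10 hearts Pearson's r with Ccr2 was 0.826 for Tyrobp, 0.770 for Plac8, 0.704 for Lyz2, 0.660 for Slamf8 and 0.655 for Adgre4 (Spearman's rho 0.709, 0.697, 0.564, 0.564 and 0.491). It was 0.627 for Fcer1g, 0.586 for Ccl7, 0.455 for Ccl2 and 0.368 for Aif1 (rho 0.564, 0.382, 0.382 and 0.321). The median was 0.655, beside a median of 0.004 and a 95th percentile of 0.639 over the other 12991 tested genes. All 9 lay above the 75th percentile (0.268) and 5 above the 95th. The points share libraries, depth and S1Pless replicate 5, and the genes were chosen with such results known, so no p is given.

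The likeness rested in large part on S1Pless replicate 5. Without the 2 hearts farthest from the median of Ccr2, which were control replicate 1 and S1Pless replicate 5, r was 0.579 for Tyrobp, 0.485 for Ccl7, 0.454 for Plac8 and 0.421 for Ccl2. It was -0.004 for Fcer1g and -0.076 for Aif1, and the median of the 9 genes was 0.390. Without S1Pless replicate 5 alone the median was 0.316, Tyrobp had 0.676 and Plac8 0.590, and Ccl2 (-0.014) and Aif1 (0.003) were near 0. Tyrobp was then the only 1 of the 9 above the 95th percentile of all genes (0.624). Within the 5 S1Pless hearts, replicate 5 among them, r ran from 0.838 for Aif1 to 0.938 for Fcer1g. Within the 5 controls it was -0.357 for Aif1, -0.244 for Ccl2, 0.033 for Ccl7 and 0.131 for Fcer1g, and at most 0.714, for Tyrobp.

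Among the 10 genes there were 45 pairs, of which 38 had r above 0.5 and 0 below 0, with a median of 0.673. Adgre4 with Slamf8 was the closest pair (0.876), followed by the ligands Ccl2 and Ccl7 (0.873) and by Fcer1g with Lyz2 (0.869). The median of the pairs was 0.328 without S1Pless replicate 5, and the ligand pair then had 0.723. The ligand genes therefore tracked each other more closely over these 9 hearts than either tracked Ccr2 (Ccl2 -0.014, Ccl7 0.176), a difference that was not tested.

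**Figure D3:**
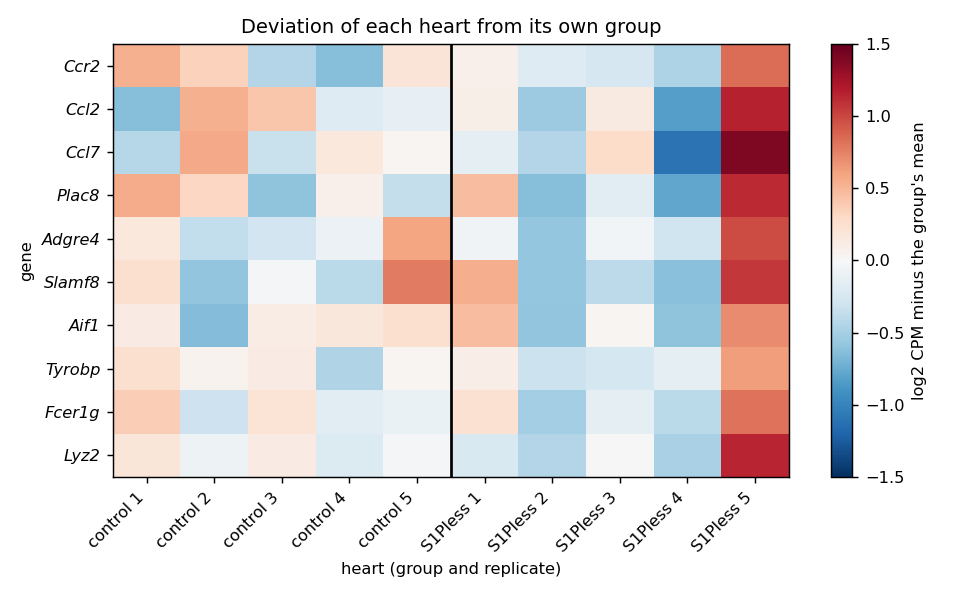
Deviation of each heart (columns, controls left of the line) from its own group's mean in log2 CPM for each gene (rows), from blue (below the mean) over white to red (above it). The column of S1Pless replicate 5 is red in all 10 rows, and no control is above its group's mean in every row.

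The 10 genes outside the set that were most like Ccr2 by the same r, of 11985 that had a named symbol and averaged at least 1 CPM, were Flna (0.951), Psd4 (0.944), Msr1 (0.937), Tlr13 (0.935), Ms4a6d (0.933), Selplg (0.931), Myo1g (0.925), Msn (0.924), Themis2 (0.923) and Gnai3 (0.914). Flna and Msn encode the actin-linked proteins filamin A and moesin, Msr1 a scavenger receptor of macrophages, Tlr13 a sensor of bacterial RNA and Selplg the ligand of P-selectin. Over the 9 hearts without S1Pless replicate 5 their r was 0.867 to 0.914. Each of these was closer to Ccr2 than any of the 9 genes of the set, though they are the extremes of 11985 values. Selplg (log2 fold change 0.94), Myo1g (1.03) and Themis2 (0.87) were also called higher, and the other 7 were not, with log2 fold changes from 0.22 for Gnai3 to 0.96 for Ms4a6d.

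Related genes of the pathway were collected in 11 lists of 110 genes, of which 99 were in the table and 88 were tested. Of the 88, 24 (27.3%) were called higher, beside 3.40% of all tested genes, and 0 lower. At unadjusted p-values below 0.05 edgeR had 64 higher and 2 lower, beside 886 lower of all 12992 tested genes. DESeq2 called 46 higher and 0 lower, and limma-voom 24 and 0. Over all tested genes DESeq2 called 5.88% higher and limma-voom 3.98%. Their median log2 fold change was 0.85, and 27 had every S1Pless heart above every control, beside 4.53% of all tested genes. Without S1Pless replicate 5 the calls were 14, beside 1.69% of all genes in that fit, and the median was 0.58. The lists were drawn up with results of these data known, and the filter on low counts removed 11 of their genes, so these counts describe the lists and set them apart from no other. Levels of their genes below are means ± SD over 5 hearts a group, and a lone number in parentheses after a fold is that gene's edgeR adjusted p.

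Chemokine signalling and adhesion genes were called in the S1Pless direction. Of 10 tested genes that act behind leukocyte chemokine receptors 6 were called, with a median log2 fold change of 0.84. Arrb2, the beta-arrestin that takes receptors off the surface, rose 1.68-fold from 13.3 ± 1.00 to 22.2 ± 5.39 CPM (edgeR adjusted p = 0.0162). Pik3r5, a subunit of the PI3-kinase activated by such receptors, rose 2.33-fold (edgeR adjusted p = 0.0241), Coro1a, a leukocyte actin regulator, 1.80-fold (0.0242) and Dock2, which activates Rac in migrating leukocytes, 2.13-fold (0.0275), and Elmo1 and Arhgdib made up the 6. Of 7 integrin and selectin ligand genes 5 were called, with a median of 1.00. Itgax, which encodes CD11c, rose 2.97-fold (edgeR adjusted p = 0.0116), Itga4, the alpha chain of VLA-4, 2.37-fold (0.0192), Selplg 1.91-fold (0.0192) and Pilra, an inhibitory receptor, 2.89-fold (0.0209), and the fifth was Itgal. The list of other receptors and scavengers of these chemokines held 1 call among 7, with a median of 0.29: Ccr1, a receptor of CCL7 among others, rose 2.46-fold, between means of 1.09 ± 0.514 and 2.66 ± 0.911 CPM (edgeR adjusted p = 0.0429). With 7 counts in control replicate 4, Ccr1 would not have met the filter on low counts on the control hearts alone, so its call is no independent support.

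The other monocyte attractants held 0 calls among 9 in edgeR, 6 higher and 1 lower at unadjusted p-values below 0.05, 2 higher in DESeq2 and 0 in limma-voom. Their median log2 fold change was 0.85. Cx3cl1, the ligand of the receptor of non-classical monocytes, had 15.1 ± 2.81 and 21.8 ± 4.77 CPM (log2 fold change 0.53, edgeR adjusted p = 0.0809), and Csf1, the growth factor of macrophages, 50.9 ± 3.71 and 64.3 ± 11.5 CPM (0.34, edgeR adjusted p = 0.121). Ccl8 and Ccl12, close relatives of Ccl2 and Ccl7 that are named after their values were seen, had log2 fold changes of 1.75 ± 0.63 and 1.35 ± 0.47 (edgeR adjusted p = 0.161 and 0.134). Cxcl12, the 1 lower gene and also named after its values were seen, had 284.5 ± 53.1 and 214.9 ± 37.8 CPM (log2 fold change -0.405, edgeR adjusted p = 0.143). The summed level of the list was 307 to 456 CPM in controls and 299 to 424 in S1Pless hearts, so the groups overlapped. Cxcl12 was the largest part of this sum in every heart, with 215 to 353 CPM in controls and 184 to 278 in S1Pless hearts. The overlap of the sum therefore says little of the other genes, and 8 of the 9 tested had a log2 fold change above 0. None of Ccl2, Ccl7, Ccl8 and Ccl12 passed the edgeR test, and in each of them S1Pless replicate 5 was the highest heart.

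Genes of classical monocytes held 1 call among 10 tested. Chil3, a chitinase-like protein of such cells, rose 4.33-fold, between means of 0.306 ± 0.208 and 1.29 ± 0.728 CPM (edgeR adjusted p = 0.0240), on 2 to 10 reads in each control and 15 to 54 in each S1Pless heart. Chil3 met the filter on low counts only through the S1Pless hearts, so its call is no independent support, and a filter of 1 CPM in 5 libraries left it out. The list's median log2 fold change was 0.98, 7 genes were higher at an unadjusted p below 0.05, and Ly6c2, Ms4a4c and Ifitm6 were too low to test. Ly6c2, the defining surface gene of classical monocytes, was read at 1 to 7 counts among controls and 3 to 15 among S1Pless hearts, and its near-identical neighbour Ly6c1 makes these counts uncertain. Genes of non-classical monocytes held 0 calls among 6 in edgeR, with 3 higher and 0 lower at an unadjusted p below 0.05, 3 in DESeq2 and 0 in limma-voom. Spn, which encodes CD43, had a log2 fold change of 1.51 (edgeR adjusted p = 0.0529) and Pou2f2 1.37 (edgeR adjusted p = 0.0857). The median of this list was 0.75, with 4 of the 6 genes above 0 and a range from -0.33 to 1.51. Its summed level was 2164 to 2426 CPM in controls and 1755 to 2338 in S1Pless hearts, so the groups overlapped. Spn (means of 1.41 CPM in controls and 3.94 in S1Pless hearts) and Pou2f2 (1.78 and 4.62 CPM) were a very small part of it. The sum therefore says little of Spn and Pou2f2. The summed level of the classical list was 123 to 143 CPM in controls and 132 to 297 in S1Pless hearts, also with overlap. A difference between the classical and the non-classical list was not tested.

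Behind the adaptors, 1 of 11 tested receptors that pair with Tyrobp or Fcer1g was called, with a median of 1.00: Fcgr3, a low-affinity Fc receptor, rose 1.81-fold from 12.6 ± 2.33 to 22.7 ± 8.71 CPM (edgeR adjusted p = 0.0373). Of 11 kinases and adaptors that the ITAM engages or that restrain it 5 were called, with a median of 0.59. Among them the linker Blnk rose 1.51-fold (edgeR adjusted p = 0.0275). Inpp5d, which encodes the phosphatase SHIP1, rose 1.69-fold (0.0135) and Ptpn6, the phosphatase SHP-1, 2.07-fold (0.0307), and the adaptor Lcp2 was called too. Inpp5d and Ptpn6 are known as brakes on ITAM signals, while Blnk and Lcp2 act in passing them on.

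Of 9 transcription factors of myeloid cells 3 were called, with a median of 0.43. Spi1, which encodes PU.1, rose 1.97-fold from 5.18 ± 0.600 to 10.2 ± 3.67 CPM (edgeR adjusted p = 0.0193), Irf8, which directs monocyte and dendritic cell development, 1.80-fold (0.0227) and Cebpa, a factor of the myeloid lineage, 1.56-fold (0.0429). Among the relatives of Slamf8, 2 of 6 were called: Slamf7 rose 2.52-fold (edgeR adjusted p = 0.0139) and Cd48 1.85-fold (0.0303). Among the relatives of Adgre4, 0 of 4 were called in edgeR, with 3 higher and 0 lower at an unadjusted p below 0.05 and 1 each in DESeq2 and limma-voom. Adgre5, which encodes CD97, had 65.5 ± 5.19 and 80.9 ± 4.64 CPM (log2 fold change 0.30, edgeR adjusted p = 0.0566). Adgre1, which encodes the macrophage antigen F4/80, had 8.71 to 13.3 CPM in controls, 13.2 to 18.98 in S1Pless replicates 1 to 4 and 57.7 in replicate 5 (1.11, edgeR adjusted p = 0.131).

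**Figure D4:**
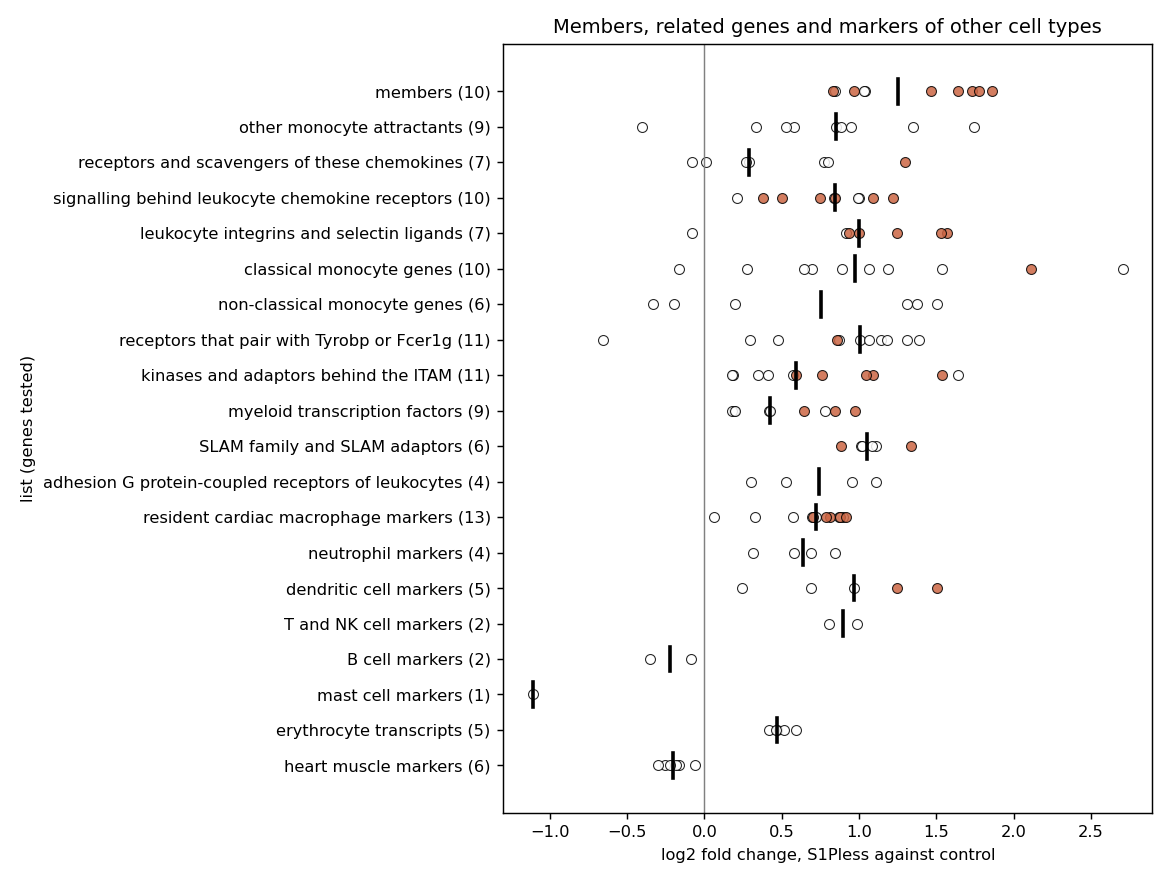
Log2 fold change (horizontal axis, S1Pless against control) of each tested gene of the 10 genes described here, of the 11 lists of related genes and of the 8 marker lists, 1 row each with the number of tested genes in parentheses. Filled circles are genes called higher, open circles are genes not called, and black bars are medians, which run from 1.25 for the 10 genes to -1.11 for the single tested mast cell marker.

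Of the 20 called genes that the naming rule picked from the lists of related genes, Arrb2, Itgax, Inpp5d and Slamf7 passed in every leave-one-out fit. When control replicates 1 to 5 were omitted in turn, 19, 12, 4, 4 and 9 passed. When S1Pless replicates 1 to 5 were omitted, 14, 19, 18, 20 and 14 did. The shares of all tested genes called in these fits are given below. Without S1Pless replicate 5 the folds of these genes were smaller, with 3.25 in place of 4.33 for Chil3 and 1.65 in place of 1.97 for Spi1.

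Of the 8 lists of markers of other cells of the heart, those of resident macrophages and dendritic cells held called genes, all higher, and their part in the results was not tested. Of 13 resident macrophage markers 5 were called higher, among them Csf1r, which rose 1.84-fold (edgeR adjusted p = 0.0255), C1qa, which rose 1.88-fold (0.0303), and C1qc, which rose 1.72-fold (0.0304), and the others were Lyve1 and Mrc1. All 13 had a log2 fold change above 0, and 12 were higher and 0 lower at an unadjusted p below 0.05 in edgeR. DESeq2 called 10 of the 13 higher and limma-voom 7. The summed level of the resident macrophage markers was 451 to 535 CPM in controls, 592 to 707 in S1Pless replicates 1 to 4 and 1075 in replicate 5, so the groups did not overlap. Of 5 tested dendritic cell markers 2 were called, Batf3 and Clec9a, and the summed level was 38.2 to 48.9 and 51.0 to 63.4 CPM. Clec9a, with 4 counts in control replicate 4, would not have met the filter on low counts on the control hearts alone. Of the 6 called markers other than Mrc1, 6, 2, 0, 0 and 1 passed when control replicates 1 to 5 were omitted in turn. When S1Pless replicates 1 to 5 were omitted, 3, 5, 6, 6 and 5 did. With the haemoglobin share or a block for neighbouring title numbers as a covariate, 0 passed.

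Markers of the remaining leukocytes were low, with median log2 fold changes above 0 for neutrophils (0.64) and T and NK cells (0.90) and below 0 for B cells (-0.22) and mast cells (-1.11). Of the neutrophil markers 4 of 10 were tested, with 0 called in edgeR, DESeq2 and limma-voom and 0 at an unadjusted p below 0.05, and their sum was 3.24 to 19.2 CPM in controls and 11.2 to 20.8 in S1Pless hearts. The sums were 1.53 to 6.71 and 3.70 to 7.40 CPM for T and NK cells, 0.855 to 3.00 and 0.600 to 4.11 for B cells and 1.56 to 4.85 and 0.550 to 1.94 for mast cells, with 0 of 2, 0 of 2 and 0 of 1 tested genes called in any of the 3 tools. At an unadjusted p below 0.05 in edgeR, 1 of these 5 genes, Cd4, was higher. Erythrocyte transcripts summed to 32.2 to 143 and 73.9 to 172 CPM, with 0 of 5 called in the 3 tools and 0 at an unadjusted p below 0.05. Heart muscle markers summed to 49570 to 59460 CPM in controls and 41120 to 52920 in S1Pless hearts, where replicate 5 was the lowest, and 0 of 6 were called in edgeR, with 1, Pln, lower at an unadjusted p below 0.05 and also in DESeq2. No marker of these lists that is in the table was at 0 in all hearts.

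The calls moved with the hearts and with the terms of the fit, while the log2 fold change of each gene stayed above 0 in all 20 other fits that tested it. Of the 10 genes, 7, 3, 3, 3 and 4 were called when control replicates 1 to 5 were omitted in turn, and 3, 8, 7, 8 and 5 when S1Pless replicates 1 to 5 were. Of all tested genes, 3.85, 1.99, 0.90, 0.93 and 1.70% were called higher without control replicates 1 to 5. Without S1Pless replicates 1 to 5 the shares were 2.06, 3.78, 3.28, 3.51 and 1.69%, beside 3.40% in the reported fit. Ccr2, Adgre4 and Aif1 were called in all 10 of these fits. Plac8, Slamf8, Tyrobp and Fcer1g lost the call without control replicate 2, 3 or 4 or S1Pless replicate 1. Plac8, Tyrobp and Fcer1g also lost it without control replicate 5, and Plac8, Slamf8 and Fcer1g without S1Pless replicate 5. Lyz2 gained it without S1Pless replicate 2, 4 or 5. With a block for hearts with neighbouring numbers in their titles, whose meaning is not stated, and with the haemoglobin share of each library as a covariate, 0 of the 10 genes were called in edgeR. Of all tested genes these fits called 0.616% and 0.0539% higher. The log2 fold changes of the 10 genes ran from 0.69 to 1.59 with the block and from 0.76 to 1.81 with the haemoglobin share, beside 0.83 to 1.86 in the reported fit. With the haemoglobin share Ccr2 had 1.69, in place of 1.64, and Adgre4 1.81, in place of 1.78. At unadjusted p-values below 0.05 these fits still had 8 and 10 of the genes higher and 0 lower. In that block the level of control replicates 3 and 4 contained no S1Pless heart, so neither contributed to its group difference. The haemoglobin share was 0.00304% to 0.0121% in controls and 0.00744% to 0.0172% in S1Pless hearts.

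**Figure D5:**
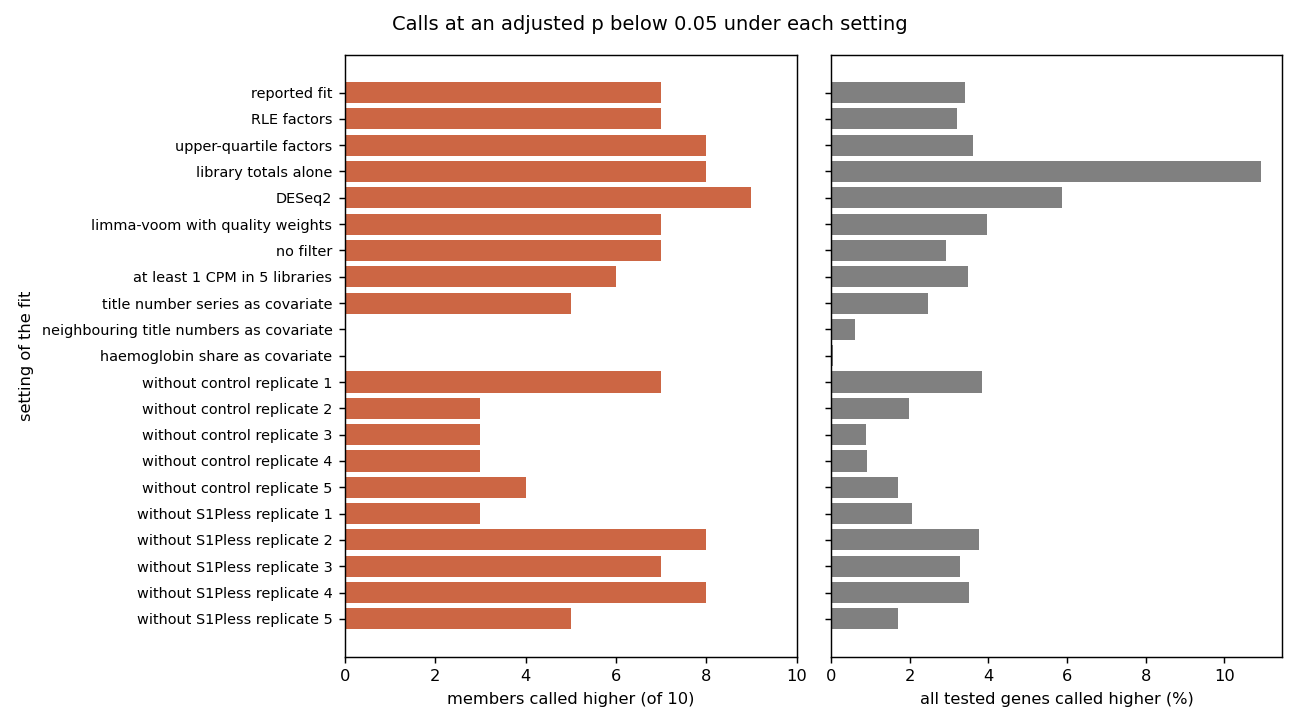
Number of the 10 genes called higher (left, of 10) and share of all tested genes called higher (right, in percent) at an adjusted p below 0.05 in the reported fit and in each other setting (rows). The bars on the left run from 0, with the neighbouring title numbers or the haemoglobin share as a covariate, to 9 in DESeq2, and the shares on the right run from 0.0539% with the haemoglobin share to 10.9% with library totals alone.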

How the data were processed

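The authors deposited 1 table of read counts by Ensembl gene. STAR 2.7.8a, featureCounts 2.0.1 and GRCm39 are listed per the submitters' processing notes. Which annotation and strand setting were used is not given in the sources used here, so counts of overlapping genes and near-identical copies are uncertain. Libraries were made from total RNA (TRIzol, RNeasy) with a stranded Illumina mRNA kit, per the labels' protocols. Groups follow the genotype in the labels, and replicates are numbered in accession order. The p-values set the difference between the groups against the spread between hearts within a group.

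Counts were tested with edgeR 4.0.16 in R 4.3.3, using filterByExpr (minimum count 10), TMM factors, a robust glmQLFit and a two-sided glmQLFTest, with Benjamini-Hochberg adjustment over all 12992 tested genes and a threshold of 0.05. SEs were derived from the fold change and the square root of F. The biological coefficient of variation was 15.2%. Correlations used log2 CPM (prior count 2) centred on group means. Symbols and exon lengths came from GENCODE M21. The test was checked on simulated data.

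Alternatives were other scaling factors, DESeq2 1.42.0, limma-voom (limma 3.58.1), other filters, covariates and leaving out each heart. The genes described and the lists were chosen with earlier results of these data known. The genes named are those 10, up to 4 called genes of each list with the smallest p or, with none called, up to 2, the 10 genes most like Ccr2, and Sphk1 and Sphk2. The results of 1 such gene are not reported here, though counts over its list include it. Ccl8, Ccl12, Cxcl12, Lyz1, Ly6c1, Ly6c2, Ms4a4c, Ifitm6, Elmo1, Arhgdib, Itgal, Lcp2, Mrc1, Fpr1, Hp and S100a8 were named after their values were seen.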

Additional observations from a re-analysis of the deposited data

Results flagged for a closer look

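Of 58 groups of 5 hearts checked, 11 held a heart far from the others by Dixon's criterion, a gap of more than 0.71 of the group's range. Chance gives about 1 in 20 groups, and the groups share hearts and genes. Among the 10 genes, S1Pless replicate 5 stood apart in Adgre4 (6.12 CPM, next 2.96) and Lyz2 (541 CPM, next 248), and control replicate 2 stood apart below the others in Aif1 (1.18 CPM, next 2.08).

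S1Pless replicate 5 was also far above its group in the summed CPM of 6 lists. It had 76.6 CPM for receptors and scavengers of the chemokines (next 52.7), 67.4 for leukocyte integrins and selectin ligands (next 39.7) and 124 for receptors that pair with Tyrobp or Fcer1g (next 62.6). It had 46.7 for the SLAM family (next 25.4), 151 for adhesion G protein-coupled receptors (next 103) and 1075 for resident macrophage markers (next 707). In the summed T and NK cell markers, control replicate 1 (6.71 CPM, next 2.63) and S1Pless replicate 1 (7.40 CPM, next 4.54) stood apart.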

How the results depend on the processing

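Over the 64 named genes and 20 other fits, 1024 of 1271 values kept their direction and side of the threshold, 206 fell below it, 36 passed it and 5 changed sign. The 442 genes called higher became 1420 with library totals alone, 764 in DESeq2, 80 with the block for neighbouring title numbers and 7 with the haemoglobin share as a covariate. The 41 called lower became 13, 264, 8 and 0 in these fits (620 at an unadjusted p below 0.05 in the last). The 24 related genes became 47, 46, 1 and 0 (62 at an unadjusted p below 0.05 in the last), and the 7 of the 10 genes described became 0 with either covariate. The causes were not tested. Library totals alone shifted the median log2 fold change by 0.136. Leaving out each heart gave 118 to 504 genes higher, 8 to 85 lower, 3 to 8 of the 10 genes and 5 to 34 related genes, and a median r with Ccr2 of 0.316 to 0.760.

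Cd79b (log2 fold change -0.09) turned to 0.049 with library totals, 0.080 without control replicate 5 and 0.169 without S1Pless replicate 2, and over all leave-one-out fits ran from -0.333 to 0.169. Hba-a1 and Alas2 turned to -0.091 and -0.082 with the haemoglobin share. The r with Ccr2 turned to -0.014 for Ccl2 without S1Pless replicate 5 (-0.014 to 0.740 over all leave-one-out fits), and to -0.076 for Aif1 and -0.004 for Fcer1g without the 2 farthest hearts. The labels call the controls littermates but state no pairs, and the block for neighbouring title numbers, whose meaning is not stated, came nearest to a pairing. Depth limits low genes such as Plac8 and Chil3, with 2 to 11 counts per control library, and left Ly6c2 and Fpr1 untested.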

Other observations

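A pair of other leukocyte genes, picked after their values were seen, were high in S1Pless replicate 5. Fpr1, a receptor for bacterial peptides that draws phagocytes, had 0 to 5 counts in every control and in S1Pless replicates 1 to 4, and 77 in replicate 5. Hp, which encodes haptoglobin, had 6 to 72 counts per control heart, 28 to 87 in S1Pless replicates 1 to 4 and 319 in replicate 5. S100a8, a neutrophil and monocyte gene, had 6 to 44 counts per control heart and 23 to 52 per S1Pless heart, and replicate 5 did not stand apart (2.42 CPM, beside 2.60 in S1Pless replicate 2). The filter on low counts left Fpr1 untested, and Hp and S100a8 did not pass (edgeR adjusted p = 0.255 and 0.480).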
